A study of Mus musculus with 24 samples.

Results

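Immediate early and stress response genes were followed in stromal cells sorted from the gonadal fat of mice. The members were 39 genes taken from a list of AP-1, EGR, NR4A and KLF factors, other early response genes, dual specificity phosphatases, feedback regulators and heat shock proteins. Of the 39, 38 had an array row that named that gene alone, and all 38 passed the filter on low values, out of 15496 genes that passed it. Fosl1 was not analysed here. The study hybridised 24 arrays, 1 per sample, and asked how the cells of lean, obese and formerly obese mice differ. All mice were male C57Bl/6. They received a normal diet (ND), a high fat diet with 60% fat (HFD), or, for weight loss (WL), HFD during 12 weeks followed by 8 weeks after its withdrawal. The age of the mice was not given in the sources used here. Adipose tissue macrophages (ATM) without surface CD11c were sorted from ND (2 arrays), HFD (3 arrays) and WL mice (2 arrays), and those with CD11c from HFD and WL mice (3 arrays each). CD11c, an integrin chain, marks inflammatory macrophages of obese fat as well as dendritic cells, and too few CD11c+ macrophages were present in ND mice to be purified. Adipose tissue dendritic cells (ATDC) came from ND (2 arrays) and HFD mice (3 arrays), and preadipocytes (PA), the fibroblast-like precursors of fat cells, from ND and HFD mice (3 arrays each). Each ND array of macrophages or dendritic cells held 1 of 2 pools made from 4 mice. Each HFD array, and each PA array of either diet, held a pool of 3 to 4 mice. The pooling of WL mice was not given in the sources used here.

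Immediate early genes are transcribed within minutes of a stimulus because their activators, among them serum response factor, CREB and NF-kB, are already present in the resting cell and need only be modified by kinases. Their first products, the AP-1, EGR and NR4A transcription factors, start the second wave of a response, while phosphatases of the DUSP family, the mRNA decay factor Zfp36 and the cytokine signalling inhibitor Socs3 turn it off again. In macrophages they are known as part of the early response to microbial products and cytokines, and heat shock proteins of the Hsp70 class are made when proteins unfold. Collagenase digestion and sorting, used for every sample, are known to induce many of these genes as well. The RNA measured here was taken after both steps, so RNA of the tissue and RNA made during isolation cannot be told apart.

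Values were the deposited log2 expression values, and array medians lay between 2.96 and 3.15. In ND mice the sorted types carried their defining markers. The summed level of 13 macrophage markers, on the linear scale, was 18692 to 19034 in ND CD11c- ATM and 603 to 1759 in ND PA, the median of 12 preadipocyte markers was 10.04, 9.77 and 9.84 in ND PA, and the median of 9 dendritic cell markers was 7.93 and 7.90 in ND ATDC against 5.12 and 5.03 in ND CD11c- ATM. Other cell types showed as well. The median of 8 mast cell markers was 8.40 and 9.19 on the 2 WL CD11c- ATM arrays, 6.28, 5.56 and 5.11 in WL CD11c+ ATM, 5.77, 2.32 and 4.43 in HFD CD11c- ATM, and below the array median on both ND CD11c- ATM arrays (2.28 and 2.79). 3 arrays stood apart, and each count from a comparison that holds one of them was repeated without them: HFD CD11c- ATM 3 for its preadipocyte markers, HFD ATDC 1 for its mast and NK cell markers, and WL CD11c+ ATM 1 for the lowest mean correlation with its own group (0.881). In bulk samples fewer cells of a type and less RNA per cell cannot be told apart.

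The members varied more between the 9 groups than most genes did. They were also highly expressed, at a median percentile of 88.9 for mean level, and the reference of all tested genes was not matched for level. Their group means spanned a median of 2.18 log2 units, against 1.19 over all tested genes, and the spread within groups was a residual SD of 0.440 against 0.394. A moderated F test over the 9 groups (limma, Benjamini-Hochberg adjustment over all tested genes, threshold 0.05) called 31 of 38 members, where it called 42.7% of all genes. Jund, Maff, Klf10, Ier2, Myc, Hspa1a and Dnajb1 did not pass it. The highest group mean was that of WL CD11c- ATM for 24 of 38 members (63.2%), compared with 8.8% of all tested genes. ND CD11c- ATM had the highest mean for 7 members, namely Fos, Jund, Klf2, Klf4, Klf10, Dusp6 and Hspa1a. The lowest mean was in HFD PA for 13 members and in ND PA for 9. Across the 12 comparisons described below, 64 differences of members passed an adjusted p of 0.05, and in all 64 the arrays of the 2 groups did not overlap, as was the case for 98.9% of the 11121 called differences of all genes. Nr4a3 and Dusp2 passed it in 5 comparisons each, and Dnajb1, Dusp4, Egr2, Ier2, Ier5, Klf10 and Myc in none.

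**Figure D1:**
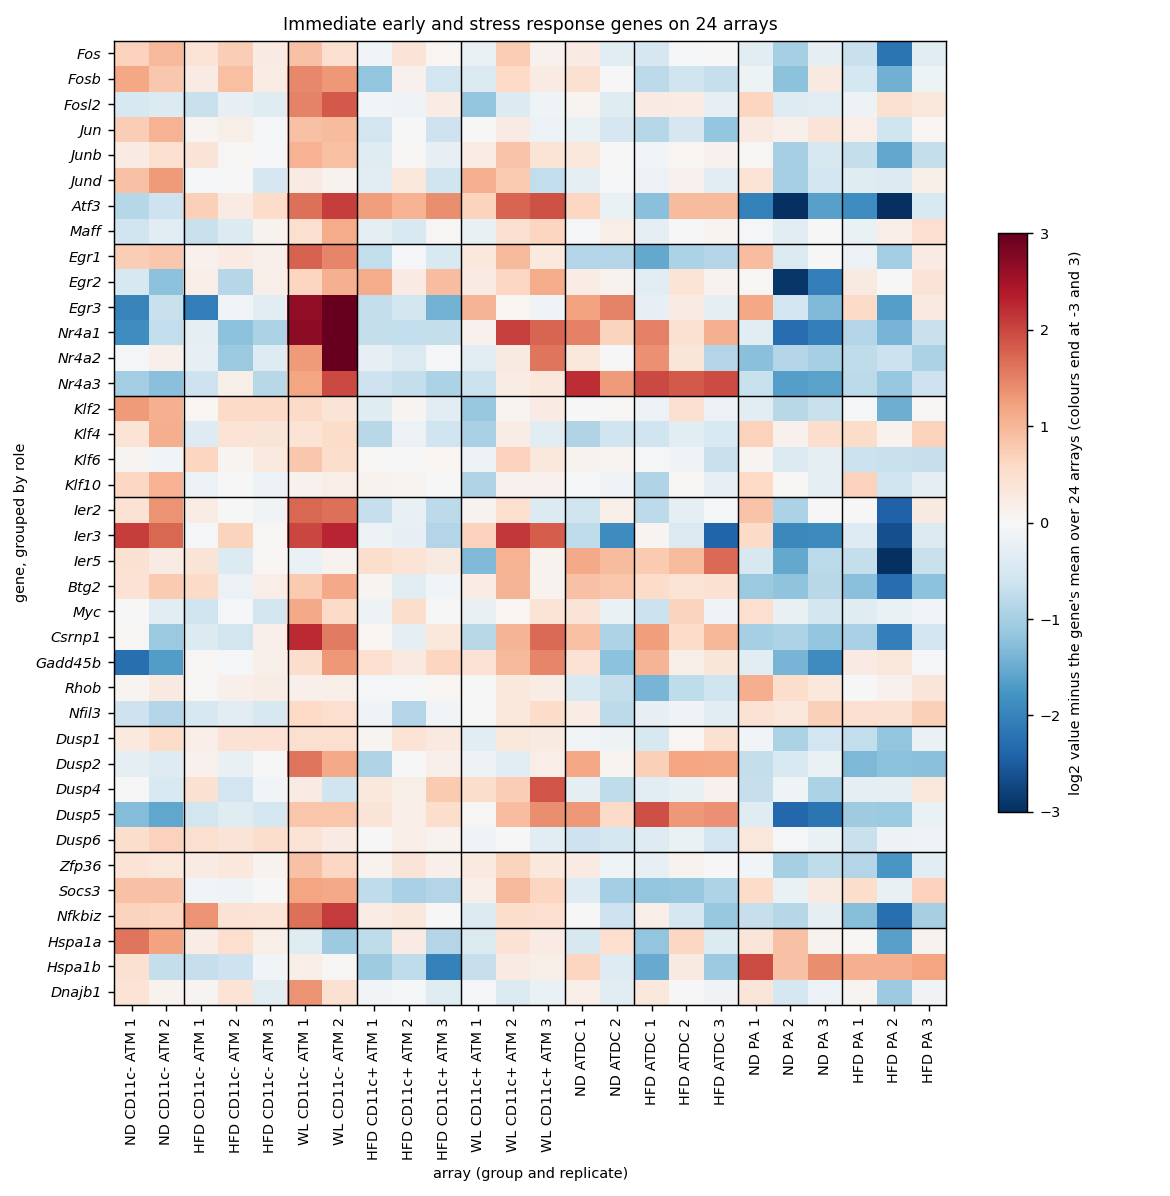
Log2 value of each of the 38 members (vertical axis, grouped by role) on each of the 24 arrays (horizontal axis), as the difference from the gene's own mean over the arrays; red is higher, blue is lower, and colours end at -3 and 3. The 2 WL CD11c- ATM columns are red for most AP-1, EGR and NR4A factors, the ATDC columns are red for Nr4a1, Nr4a3 and Dusp5, and the PA columns are blue for many members. All PA columns lie above the mean for Hspa1b, Klf4 and Nfil3. For Rhob and Socs3 the PA group means of both diets lie above it, but not every PA column does.

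In the main fit, the 3 NR4A nuclear receptors, Egr3, Fosl2, Maff and Dusp2 were called higher in WL than in HFD and ND CD11c- ATM. Some of these calls depended on the fit. With only the groups compared, Maff (limma, adjusted p 0.25 against HFD and 0.18 against ND) passed in neither comparison. The same held for Nr4a2 (limma, adjusted p 0.18 and 0.24) and Dusp2 (limma, adjusted p 0.13 and 0.081). Against HFD, 9 of 38 members rose and 0 fell in WL CD11c- ATM, while 2.96% of all tested genes were called. The median log2 difference of the 38 members was 0.89, compared with -0.09 over all genes. An unadjusted p below 0.05 (limma) was found for 20 of 38 members and 2739 of 15496 genes. Those that rose were the 3 NR4A factors, Egr1 and Egr3, the AP-1 factors Fosl2 and Maff, the phosphatase Dusp2 and the STAT inhibitor Socs3. The HFD count depended on the fit. It was 5 with array weights, and with only the groups compared it was 1, Nr4a1 (adjusted p = 0.026), while Fosl2 had an adjusted p of 0.064 and Egr3 one of 0.11. Against ND, 11 members rose and 1 fell, with 6.18% of all genes called. With only the groups compared 7 members passed, but only 6 of the 12 calls held. These were Fosl2, Egr3, Nr4a1, Nr4a3, Gadd45b and Dusp5. Both comparisons use the same 2 WL arrays, so they are not separate evidence. On these 2 arrays the mast cell markers were high. Their summed linear level was 4386 to 5887 in WL, 52 to 913 in HFD and 48.2 to 51.6 in ND CD11c- ATM, and 6 of 8 were called higher against HFD and 8 of 8 against ND. Of the mast cell markers, Hdc and Ms4a2 had group means below 3 in every group except WL CD11c- ATM (7.07 and 5.54) and WL CD11c+ ATM (3.08 for Hdc). Against HFD, 2 of 6 NK cell, 2 of 8 endothelial, 1 of 6 neutrophil and 0 of 12 preadipocyte markers were also called higher, and 0 of 13 macrophage markers were called. Against ND, 9 of 12 preadipocyte markers were called higher, among them Lum (4.33), Pdgfra (4.12) and Pdgfrb (3.96), as were 3 of 8 endothelial and 2 of 6 neutrophil markers, and the macrophage marker Cd163 was lower (-2.12). The summed preadipocyte level was 7414 to 8635 in WL, 3264 to 9826 in HFD and 1257 to 2081 in ND CD11c- ATM. The part of these cells in the members' levels was not tested.

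The NR4A genes encode orphan nuclear receptors that act without a known hormone and limit inflammatory transcription in macrophages. Nr4a1 (Nur77) was 9.74 and 10.09 in WL, 6.76, 5.82 and 6.11 in HFD and 5.20 and 6.31 in ND CD11c- ATM. Both WL arrays lay above every HFD and ND array. The difference from HFD was 3.68 ± 0.56 log2 units (standard error of the limma fit, as for all differences below, adjusted p = 0.0014) and that from ND 4.16 ± 0.62 (limma, adjusted p = 0.00057), and both calls held with each array of the compared groups left out. Nr4a3 (Nor1) was 5.74 and 6.52 in WL, 3.92, 4.72 and 3.71 in HFD and 3.50 and 3.28 in ND, again without overlap. Its difference from HFD was 2.01 ± 0.38 (limma, adjusted p = 0.0063), a call lost without WL array 2 (adjusted p = 0.061), and from ND 2.74 ± 0.41 (limma, adjusted p = 0.00063). Nr4a2 (Nurr1) was unequal between the 2 WL arrays, at 4.65 and 7.22, and lay at 3.14, 2.27 and 3.0 in HFD and 3.33 and 3.55 in ND. The lower WL array was still above all 5 others. HFD arrays 2 and 3 were below their array medians, so the size of the difference from HFD is uncertain. The difference from HFD, 3.13 ± 0.63 (limma, adjusted p = 0.011), was lost without WL array 2 (adjusted p = 0.13), and that from ND, 2.50 ± 0.69 (limma, adjusted p = 0.035), without any 1 of ND arrays 1 and 2 and WL array 2 (adjusted p 0.14 to 0.38).

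The EGR genes encode zinc finger factors that are among the first targets of ERK signalling. Egr3 was 7.21 and 7.87 in WL CD11c- ATM, 2.49, 4.48 and 4.23 in HFD and 2.55 and 3.88 in ND. Both WL arrays lay above every HFD and ND array, and HFD array 1 and ND array 1 were below their array medians. The differences were 3.81 ± 0.71 (limma, adjusted p = 0.0062) from HFD and 4.33 ± 0.77 (limma, adjusted p = 0.0025) from ND, and both held with each array left out. Egr1 was 10.69 and 10.40 in WL, 9.06, 9.16 and 9.08 in HFD and 9.67 and 9.75 in ND. It rose against HFD by 1.44 ± 0.38 (limma, adjusted p = 0.042), a call that was lost without any 1 of HFD arrays 1, 2 and 3 and WL arrays 1 and 2 (adjusted p 0.073 to 0.2) and with the 3 arrays that stood apart left out together (adjusted p = 0.058). Against ND the difference in Egr1 was 0.83 (adjusted p = 0.27). Egr2 was 7.22 and 7.64 in WL, above all HFD and ND CD11c- ATM arrays, with differences of 1.01 (adjusted p = 0.37) from HFD and 1.71 (adjusted p = 0.12) from ND that did not pass the test.

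Among the AP-1 factors, dimers of Fos, Jun and related leucine zipper proteins, Fosl2 stood out. Fosl2 (Fra-2) was 7.78 and 8.14 in WL CD11c- ATM, 5.62, 6.06 and 5.93 in HFD and 5.83 and 5.89 in ND, and no array of any other group exceeded 6.94. It rose by 2.09 ± 0.33 (limma, adjusted p = 0.0015) against HFD and by 2.10 ± 0.36 (limma, adjusted p = 0.0017) against ND, with each array left out as well. Maff, a small Maf protein without an activation domain, was 5.10 and 5.72 in WL, 3.94, 4.20 and 4.72 in HFD and 4.01 and 4.29 in ND. Its difference from HFD, 1.12 ± 0.30 (limma, adjusted p = 0.046), was lost without any 1 of HFD arrays 1 and 2 and WL array 2 (adjusted p 0.11 to 0.26), and that from ND, 1.26 ± 0.33 (limma, adjusted p = 0.027), without any 1 of ND arrays 1 and 2 and WL array 2 (adjusted p 0.084 to 0.18). Fos itself was 9.81 and 9.41 in WL and 9.33, 9.67 and 9.16 in HFD, a difference of 0.22 (adjusted p = 0.85), and it was also high in ND (9.62 and 9.90). The other AP-1 factors had positive differences from HFD that did not pass the test: Atf3 1.36 (adjusted p = 0.35), Fosb 0.91 (adjusted p = 0.29), Jun 0.84 (adjusted p = 0.091), Junb 0.84 (adjusted p = 0.14) and Jund 0.37 (adjusted p = 0.73). Against ND, Atf3 was 10.02 and 10.43 in WL and 7.51 and 7.75 in ND without overlap, a difference of 2.60 (adjusted p = 0.061).

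The promoters of Nr4a1 and Fosl2 are shown from 250 bases before to 50 after the gene start, 5′ to 3′ on the gene's strand (GRCm38.p6). Their calls between WL and HFD CD11c- ATM held with each array left out, and both have a window in the RefSeq table. Gadd45b and Nr4a3, whose calls held in this way against ND only, also have windows and are not shown. Nr4a1 lies at chr15:101266596-101266895, plus strand, and Fosl2 at chr5:32136222-32136521, plus strand. Capitals mark matches to the NF-kB consensus site and, at the start of Fosl2, the heat shock element GAANNTTC.
Nr4a1: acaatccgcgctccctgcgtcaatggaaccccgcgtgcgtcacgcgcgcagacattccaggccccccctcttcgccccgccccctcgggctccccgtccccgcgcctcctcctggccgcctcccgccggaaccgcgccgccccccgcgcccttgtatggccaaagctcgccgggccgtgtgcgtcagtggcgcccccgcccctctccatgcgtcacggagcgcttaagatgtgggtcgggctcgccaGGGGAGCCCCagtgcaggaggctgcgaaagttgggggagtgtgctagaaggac
Fosl2: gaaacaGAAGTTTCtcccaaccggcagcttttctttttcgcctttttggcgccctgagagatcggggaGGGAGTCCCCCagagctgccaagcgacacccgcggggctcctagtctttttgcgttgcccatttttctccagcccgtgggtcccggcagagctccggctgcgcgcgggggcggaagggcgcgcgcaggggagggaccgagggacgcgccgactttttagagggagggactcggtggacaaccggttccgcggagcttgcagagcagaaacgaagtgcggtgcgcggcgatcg
These are matches of letters, not sites of binding. The NF-kB consensus site was found in 19.4% of the 31 members with a window and in 5.14% of 27025 genes, and the heat shock element in 12.9% and 9.04%.

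Of the 5 phosphatases and 3 feedback genes, Dusp2 and Socs3 rose in WL CD11c- ATM against HFD, and Dusp2 and Dusp5 against ND. Dusp2, a nuclear phosphatase of MAP kinases, was 6.35 and 5.90 in WL, 4.87, 4.54 and 4.75 in HFD and 4.46 and 4.37 in ND. The WL arrays were above the others. Its difference from HFD was 1.41 ± 0.32 (limma, adjusted p = 0.022), lost without any 1 of HFD array 2 and WL array 1 (adjusted p 0.067 to 0.15), and from ND 1.71 ± 0.35 (limma, adjusted p = 0.0058), lost without any 1 of ND array 2 and WL array 1 (adjusted p 0.053 to 0.054). Socs3, which blocks the gp130 receptor and STAT3, was 9.26 and 9.19 in WL, 7.97, 7.94 and 8.05 in HFD and 8.95 and 8.94 in ND. ND arrays thus lay close to WL arrays and HFD arrays below both. Socs3 rose against HFD by 1.24 ± 0.29 (limma, adjusted p = 0.024), a call lost without any 1 of HFD arrays 1 and 2 and WL arrays 1 and 2 (adjusted p 0.061 to 0.1), and its difference from ND was 0.28 (adjusted p = 0.7). Against ND alone, Dusp5, a nuclear phosphatase of ERK, rose by 2.27 ± 0.52 (limma, adjusted p = 0.012) from 3.71 and 3.44 to 5.85 and 5.84. HFD arrays lay between, at 4.46, 4.65 and 4.47. Dusp1, Dusp4, Dusp6, Zfp36 and Nfkbiz were called in neither comparison, and the mean of Dusp6 was 9.89 in WL, 10.04 in HFD and 10.17 in ND. Other early response genes also rose against ND. Gadd45b, a stress protein that activates a kinase upstream of p38, rose from 5.44 and 6.04 in ND to 8.24 and 9.01 in WL, a difference of 2.88 ± 0.50 (limma, adjusted p = 0.002) that held with each array left out. Csrnp1, a nuclear protein of the early response, was 7.21 and 6.53 in WL and 5.01 and 3.87 in ND (2.42 ± 0.66, limma, adjusted p = 0.034). Nfil3, a leucine zipper repressor needed for NK cell development, was 6.68 and 6.58 and 5.46 and 5.19 (1.30 ± 0.31, limma, adjusted p = 0.015). The calls against ND were lost for Dusp5 without any 1 of ND arrays 1 and 2 and WL array 1 (adjusted p 0.054 to 0.097), for Csrnp1 without any 1 of ND arrays 1 and 2 and WL arrays 1 and 2 (adjusted p 0.054 to 0.29) and for Nfil3 without any 1 of ND arrays 1 and 2 and WL array 1 (adjusted p 0.054 to 0.13).

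Members that did not pass the test against HFD but differed by at least 1 log2 unit without overlap were mostly higher in WL CD11c- ATM. The share of all genes that differed in this way is not given here. The members varied together between pools (mean pairwise correlation 0.315), so they are not separate observations. Csrnp1 was 4.56, 4.43 and 5.12 in HFD, a difference of 2.17 (adjusted p = 0.057). Ier3, a modulator of apoptosis, was 8.47 and 8.76 in WL and 6.43, 7.14 and 6.51 in HFD, a difference of 1.92 (adjusted p = 0.2), and ND arrays stood at 8.54 and 8.19. For Ier2, a nuclear early response protein, the difference was 1.64 (adjusted p = 0.15), for Myc 1.26 (adjusted p = 0.066), for Dusp5 1.32 (adjusted p = 0.14) and for Nfkbiz, a nuclear partner of NF-kB, 1.15 (adjusted p = 0.14). Hspa1a went the other way, by -1.04 (adjusted p = 0.32). The count of 9 calls against HFD fell to 5 without HFD array 2 and to 4 without WL array 2. Without the 3 arrays that stood apart it was 9. The count of 12 against ND fell to 6 or 5 without ND array 1 or 2 and to 7 without WL array 1.

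**Figure D2:**
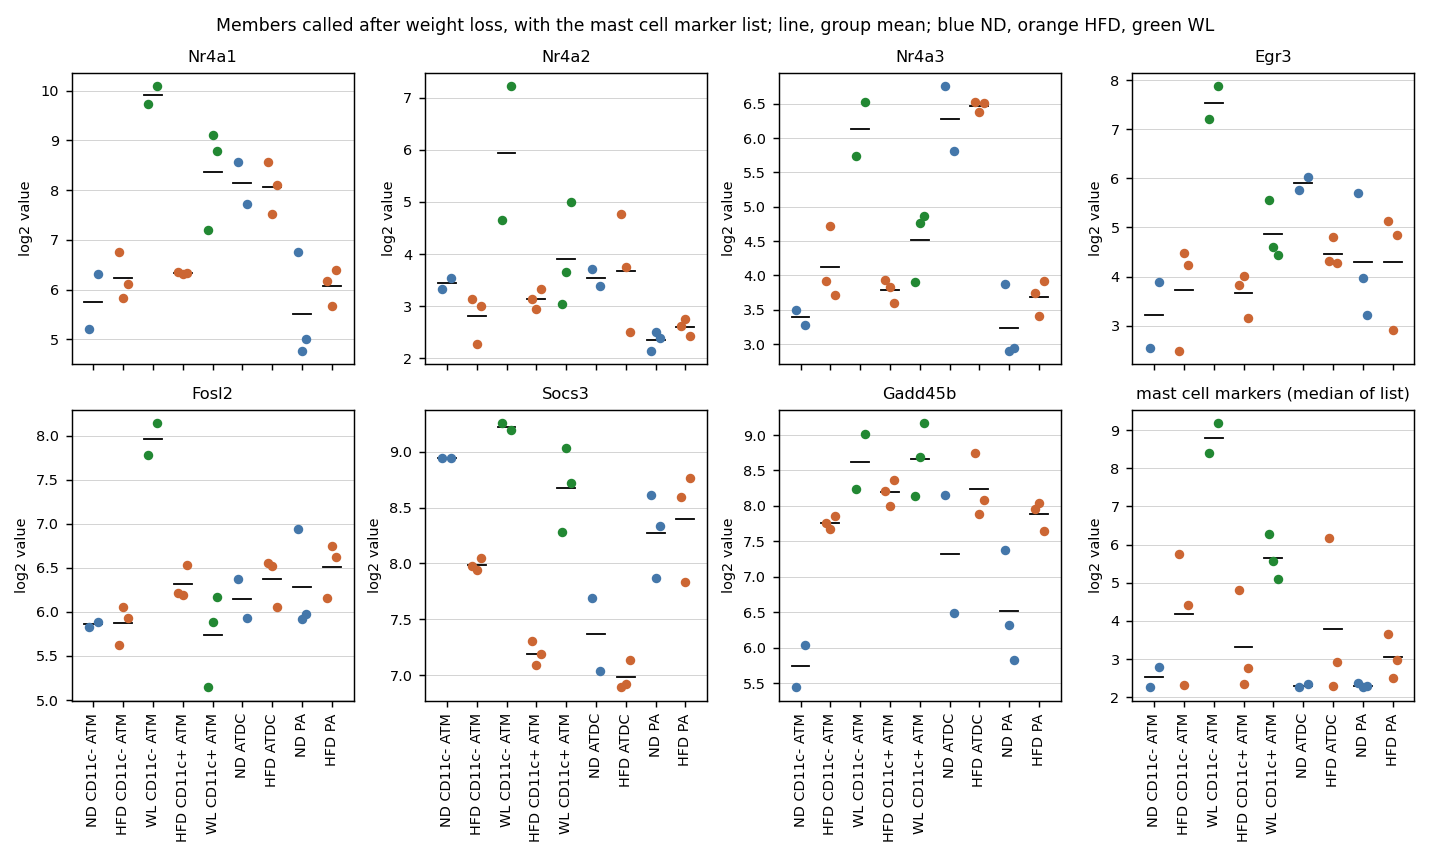
Log2 values (vertical axes) of 7 members called after weight loss and the median of the 8 mast cell markers, for each of the 9 groups (horizontal axis); points are arrays, black lines are group means, and ND is blue, HFD orange and WL green. The 2 WL CD11c- ATM arrays lie highest for Nr4a1, Egr3, Fosl2 and the mast cell markers, while Nr4a3 is as high in ATDC and Gadd45b is low mainly in ND CD11c- ATM and ND PA.

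In CD11c+ macrophages, weight loss went with a higher level of 1 member, Socs3, and 0 fell, with 1.33% of all genes called. Socs3 was 8.28, 9.03 and 8.72 in WL and 7.30, 7.09 and 7.19 in HFD CD11c+ ATM. The groups did not overlap and differed by 1.48 ± 0.26 (limma, adjusted p = 0.0089), a call lost without any 1 of HFD arrays 2 and 3 (adjusted p 0.05 to 0.052). The median difference of the 38 members was 0.45 and that of all genes -0.10. An unadjusted p below 0.05 (limma) was found for 8 of 38 members and 3113 of 15496 genes, which are similar shares. Nr4a1 was 7.19, 9.11 and 8.79 in WL and 6.35, 6.32 and 6.34 in HFD. All WL arrays were above the HFD arrays, whose values were nearly equal, and the difference of 2.03 ± 0.50 just missed the threshold (adjusted p = 0.051). Ier3 at 7.17, 8.59 and 8.28 against 6.32, 6.24 and 5.58 (1.97, adjusted p = 0.14), Egr3 (1.21, adjusted p = 0.29) and Hspa1b (1.20, adjusted p = 0.15) also differed by more than 1 unit without overlap and did not pass. WL array 1 was the lowest of its group for Nr4a1, Csrnp1 (4.15, 5.99 and 6.67) and Fosl2 (5.14, 5.89 and 6.17), and it had the highest mast cell median of its group. Without it, or without the 3 arrays that stood apart, 2 members were called. The summed mast cell level was 591 to 812 in WL and 51.1 to 275 in HFD CD11c+ ATM, with 0 of 8 markers called. Other markers were called higher in WL, namely the neutrophil genes S100a8 (2.87) and S100a9 (2.68) and the preadipocyte genes Lum (1.90) and Dcn (1.69). The summed preadipocyte level was 4657 to 5992 in WL and 1295 to 2951 in HFD CD11c+ ATM. The part of these cells in the level of Socs3 was not tested. With only the groups compared, 0 members were called, and the adjusted p of Socs3 was 0.12.

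The weight loss difference itself was compared between the CD11c+ and CD11c- macrophages by an interaction term. It was called for 1 member, Fosl2, at -2.67 ± 0.44 (limma, adjusted p = 0.0095), with 0.161% of all genes called. In CD11c+ ATM, Fosl2 was 5.14, 5.89 and 6.17 in WL and 6.22, 6.19 and 6.53 in HFD, a difference of -0.58 (adjusted p = 0.27), whereas it rose in CD11c- ATM. The Fosl2 call held with each array left out and was lost with only the groups compared (adjusted p = 0.084). The interaction was -2.60 ± 0.95 (limma, adjusted p = 0.54) for Egr3 and -2.37 ± 0.84 (limma, adjusted p = 0.54) for Nr4a2, neither of which passed. For this term 8 of 38 members and 1044 of 15496 genes had an unadjusted p below 0.05 (limma). The signs of the 2 weight loss differences, which share no array, were the same for 29 of 38 members (76.3%) and for 68.4% of all genes, and Socs3 was called in both. Compared directly after weight loss, 3 members were lower in CD11c+ than in CD11c- ATM and 0 were higher, with 1.34% of all genes called. They were Fosl2, -2.23 ± 0.33 (limma, adjusted p = 0.0012), Nr4a3, -1.62 ± 0.38 (limma, adjusted p = 0.038), and Dusp2, -1.47 ± 0.32 (limma, adjusted p = 0.028). The calls for Nr4a3 and Dusp2 were lost without any 1 of WL CD11c+ ATM array 1 and WL CD11c- ATM array 2 (adjusted p 0.084 to 0.2) and without any 1 of WL CD11c+ ATM array 2 and WL CD11c- ATM array 1 (adjusted p 0.068 to 0.15), and that for Nr4a3 without the 3 arrays that stood apart (adjusted p = 0.077). Nfkbiz, at 5.88, 6.80 and 6.79 against 7.93 and 8.38, missed the threshold with -1.66 (adjusted p = 0.054), and 4 of 8 mast cell markers were lower in the CD11c+ cells. The 3 calls were 0 with only the groups compared and 1 with array weights. In HFD mice, 0 members were called between CD11c+ and CD11c- ATM (limma), as against 0.00645% of all genes, which is 1 gene. An unadjusted p below 0.05 (limma) was reached there by 3 of 38 members and 997 of 15496 genes.

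**Figure D3:**
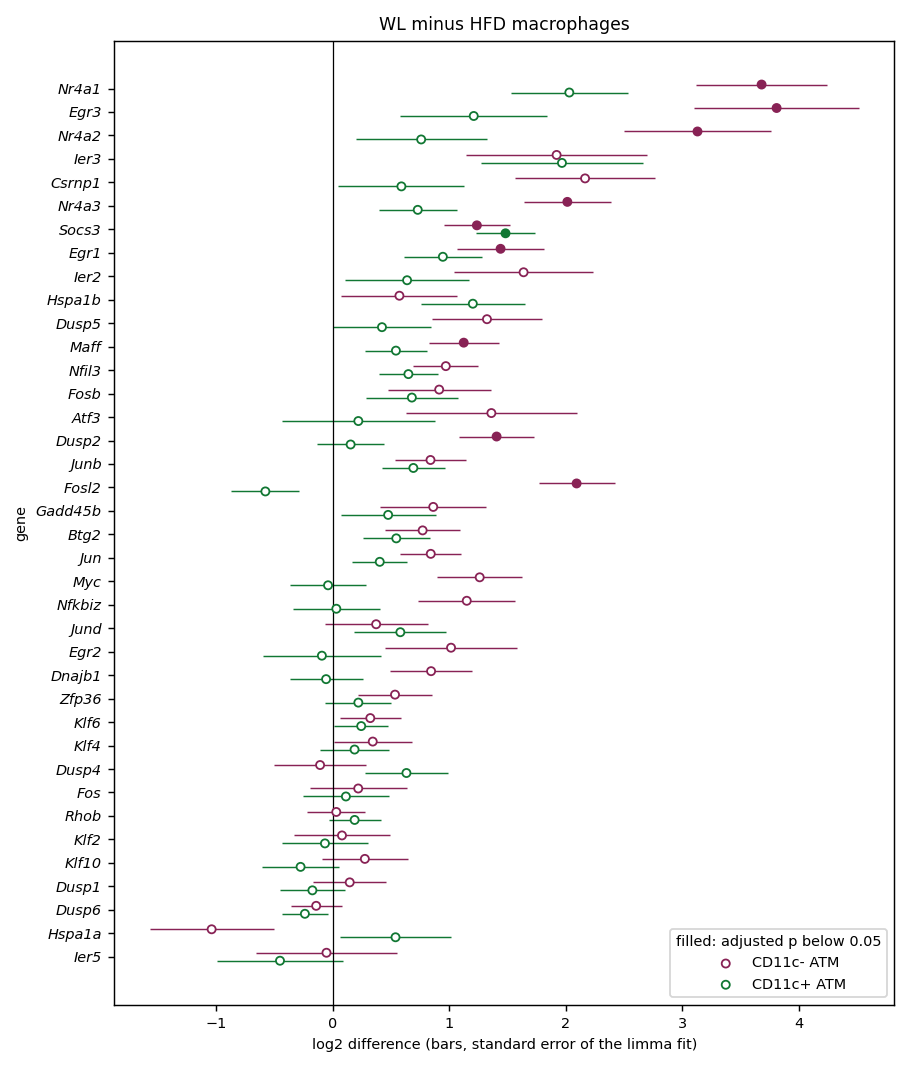
Log2 difference, WL minus HFD (horizontal axis), of the 38 members (vertical axis) in CD11c- ATM (purple) and CD11c+ ATM (green), with the standard error of the limma fit as bars; filled points passed an adjusted p of 0.05. Most points lie right of 0, filled points are 9 for CD11c- ATM and 1, Socs3, for CD11c+ ATM, and Fosl2 has the 2 cell types on opposite sides of 0.

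Few members were called for high fat feeding alone, and few of all genes were. With 2 or 3 arrays in a group, a member that was not called may still differ. Between HFD and ND, 1 member rose in CD11c- ATM (0.613% of all genes called), 0 were called in ATDC (0.258%) and 0 in PA (2.59%). At an unadjusted p below 0.05 these were 6, 0 and 5 members, and 1332, 1335 and 1804 of all 15496 genes (limma). The member that rose in macrophages was Gadd45b, from 5.44 and 6.04 in ND to 7.76, 7.67 and 7.86 in HFD CD11c- ATM. The groups were well apart, by 2.02 ± 0.45 (limma, adjusted p = 0.046), yet the call was lost without any 1 of ND arrays 1 and 2 and HFD arrays 1, 2 and 3 (adjusted p 0.059 to 0.42) and without the 3 arrays that stood apart (adjusted p = 0.12), and with only the groups compared (adjusted p = 0.17). Preadipocyte markers moved with it: Lum (3.77), Col3a1 (3.53) and Col1a2 (3.14) were called higher, 3 of 12, and the part of these cells was not tested. Gadd45b in ATDC was 8.74, 7.89 and 8.09 in HFD and 8.16 and 6.49 in ND, with overlap, and in PA 7.95, 8.05 and 7.65 in HFD and 7.39, 6.32 and 5.83 in ND without overlap (1.37, adjusted p = 0.085). In HFD CD11c- ATM, Jund (-1.28, adjusted p = 0.29), Ier3 (-1.67, adjusted p = 0.55) and Hspa1a (-1.10, adjusted p = 0.6) were lower than in ND without overlap, Atf3 was higher (1.24, adjusted p = 0.73), and none of them passed the test. Egr2 in PA was 6.84, 6.59 and 6.98 in HFD and 6.61, 3.67 and 4.51 in ND. The groups overlapped through ND PA 1, and the difference of 1.87 ± 0.51 just missed the threshold (adjusted p = 0.054). Without ND PA 1, 3 members were called in PA, and with array weights 2. Egr3 in ATDC fell short too, at 4.31, 4.80 and 4.27 in HFD and 5.77 and 6.03 in ND (-1.44, adjusted p = 0.6). In HFD PA, 8 of 13 macrophage markers were called higher than in ND PA, with summed linear levels of 1758 to 5327 and 603 to 1759. The part of these cells in the members' levels was not tested. The diet difference was not called to differ between cell types for any member. For PA against CD11c- ATM 0 of 38 passed (limma, 0.277% of all genes called), with 4 members and 1401 of 15496 genes at an unadjusted p below 0.05. For ATDC against CD11c- ATM 0 of 38 passed (limma, 0.0581% of all genes called), with 1 member and 1123 genes at an unadjusted p below 0.05.

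Members differed in both directions between dendritic cells and macrophages. In ND mice, 4 members were higher and 6 lower in ATDC than in CD11c- ATM, with 8.27% of all genes called. In HFD mice, where CD11c+ ATM served as the comparison, 2 were higher and 1 lower, with 4.16% of all genes called. Nr4a3 was called in both. It was 6.75 and 5.81 in ND ATDC and 6.53, 6.38 and 6.51 in HFD ATDC, against 3.50 and 3.28 in ND CD11c- ATM and 3.93, 3.82 and 3.59 in HFD CD11c+ ATM. ATDC arrays of both diets lay above all these macrophage arrays. The differences were 2.89 ± 0.41 (limma, adjusted p = 0.00011) in ND and 2.69 ± 0.34 (limma, adjusted p = 5.8e-05) in HFD mice, and both held with each array left out. Nr4a1 was 8.56 and 7.73 in ND ATDC, higher than in CD11c- ATM by 2.39 ± 0.62 (limma, adjusted p = 0.018), a call lost without any 1 of CD11c- ATM array 1 and ATDC array 1 (adjusted p 0.16 to 0.21). In HFD ATDC it was 8.57, 7.52 and 8.11, with a difference from CD11c+ ATM of 1.73 (adjusted p = 0.059). Egr3 was 5.77 and 6.03 in ND ATDC, higher by 2.69 ± 0.77 (limma, adjusted p = 0.035), and Dusp5 6.31 and 5.58, higher by 2.36 ± 0.52 (limma, adjusted p = 0.0056). These calls were lost for Egr3 without any 1 of CD11c- ATM array 1 and ATDC arrays 1 and 2 (adjusted p 0.11 to 0.31) and for Dusp5 without any 1 of CD11c- ATM array 2 and ATDC array 1 (adjusted p 0.057 to 0.078). In HFD ATDC, Dusp5 was 6.95, 6.32 and 6.38 against 5.39, 5.20 and 5.53 in CD11c+ ATM (1.18, adjusted p = 0.14), and Dusp2 was 5.47, 5.94 and 5.91 against 3.86, 4.74 and 4.92. Dusp2 was higher by 1.27 ± 0.29 (limma, adjusted p = 0.012), lost without CD11c+ ATM array 1 (adjusted p = 0.1), which left 1 call in this comparison. With only the groups compared, 1 of the 3 calls in HFD mice held, that of Nr4a3, and the adjusted p of Dusp2 was 0.091 (limma).

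The members lower in ND ATDC than in ND CD11c- ATM were of several roles. Ier3 was 5.71 and 4.59 in ATDC and 8.54 and 8.19 in macrophages (-3.21 ± 0.85, limma, adjusted p = 0.021). Egr1 was 8.04 and 8.04 against 9.67 and 9.75 (-1.67 ± 0.41, limma, adjusted p = 0.013), and Socs3 7.69 and 7.04 against 8.95 and 8.94 (-1.58 ± 0.31, limma, adjusted p = 0.0026). None of these groups overlapped. Klf4, a factor known for monocyte and macrophage maturation, was 6.95 and 7.26 against 8.27 and 8.94 (-1.50 ± 0.37, limma, adjusted p = 0.012). Jun differed by -1.26 ± 0.29 (limma, adjusted p = 0.0077) and Dusp6, a cytoplasmic phosphatase of ERK, by -1.18 ± 0.24 (limma, adjusted p = 0.0031). The Dusp6 call held with each array left out. The call for Ier3 was lost without any 1 of CD11c- ATM arrays 1 and 2 and ATDC array 2 (adjusted p 0.081 to 0.17), for Egr1 without any 1 of CD11c- ATM arrays 1 and 2 and ATDC arrays 1 and 2 (adjusted p 0.065 to 0.084), for Socs3 without ATDC array 2 (adjusted p = 0.051), for Klf4 without any 1 of CD11c- ATM array 2 and ATDC array 1 (adjusted p 0.1 to 0.17) and for Jun without any 1 of CD11c- ATM array 2 and ATDC array 2 (adjusted p 0.078 to 0.091). The count of 10 fell to 6 or 5 without ND CD11c- ATM 1 or 2 and to 5 without ND ATDC 1, and it was 5 with only the groups compared. In HFD mice the lower member was Rhob, a small GTPase, at 5.58, 6.21 and 6.38 in ATDC and 6.92, 6.93 and 7.04 in CD11c+ ATM (-0.91 ± 0.22, limma, adjusted p = 0.022). It was lost without any 1 of CD11c+ ATM arrays 1, 2 and 3 and ATDC array 1 (adjusted p 0.061 to 0.17) and without the 3 arrays that stood apart (adjusted p = 0.16). The Rhob call was also lost with only the groups compared (limma, adjusted p = 0.11). The 2 comparisons share no array, and 27 of 38 members had the same sign in both (71.1%, against 62.2% of all genes). NK cell markers moved with these comparisons. Their summed linear level was 1544 to 1667 in ND ATDC and 121 to 150 in ND CD11c- ATM, with 6 of 6 called higher, and 519 to 1799 and 121 to 198 in HFD ATDC and CD11c+ ATM, with 3 of 6 called. The NK median differed between the HFD ATDC arrays (8.05, 5.65 and 6.29) where Nr4a3 was nearly equal. The summed linear level of the T cell markers was 590 to 713 in ND ATDC and 96 to 274 in ND CD11c- ATM. In HFD mice it was 196 to 594 in ATDC and 106 to 214 in CD11c+ ATM, with overlap. The part of these cells was not tested.

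Between preadipocytes and macrophages of the same diet, most called members were lower in PA, among them 4 of 8 AP-1 factors in each diet. In ND mice, 10 members were lower and 2 higher in PA than in CD11c- ATM, with 23.4% of all genes called. In HFD mice, 11 were lower and 2 higher, with 20.7% called. The members' counts, 12 and 13 of 38, were thus not far from the background of the cell type difference. Over all genes 1946 were higher and 1680 lower in ND PA, and 1702 higher and 1500 lower in HFD PA. The 2 comparisons share no array. The sign was the same for 34 of 38 members (89.5%, 73% of all genes), and 9 members were called in both: Fos, Fosb, Junb, Btg2, Dusp1, Zfp36 and Nfkbiz, all lower in PA, and Nfil3 and Hspa1b, both higher. With only the groups compared, 8 of the 12 ND calls and 11 of the 13 HFD calls held. Lost in ND were Fosb, Junb, Dusp1 and Zfp36 (limma, adjusted p 0.068 to 0.12). Lost in HFD were Fos (limma, adjusted p = 0.053) and Fosb (limma, adjusted p = 0.06). Btg2, Nfkbiz, Nfil3 and Hspa1b held in both diets. Zfp36 (tristetraprolin), which destroys mRNAs with AU-rich elements such as that of TNF, was 10.45, 9.54 and 9.77 in ND PA and 10.94 and 10.86 in ND CD11c- ATM (-0.98 ± 0.32, limma, adjusted p = 0.03). In HFD it was 9.66, 8.77 and 10.18 against 10.77, 10.84 and 10.63 (-1.21 ± 0.28, limma, adjusted p = 0.0036). Dusp1, a nuclear phosphatase of p38 and JNK, was 9.78, 8.91 and 9.30 in ND PA against 10.16 and 10.43 (-0.96 ± 0.31, limma, adjusted p = 0.03) and 9.12, 8.68 and 9.68 in HFD PA against 10.07, 10.30 and 10.30 (-1.06 ± 0.28, limma, adjusted p = 0.0089). No PA array reached a macrophage array of its diet for either gene.

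The promoter windows of Zfp36 and Dusp1, the feedback members called in both diets that hold a match to a site of serum response factor or CREB, are shown here (GRCm38.p6, RefSeq). Zfp36 lies at chr7:28379179-28379478, minus strand, and Dusp1 at chr17:26508423-26508722, minus strand. Capitals mark the CArG box in Zfp36, the letters bound by serum response factor, and the CRE (TGACGTCA), bound by CREB, in Dusp1.
Zfp36: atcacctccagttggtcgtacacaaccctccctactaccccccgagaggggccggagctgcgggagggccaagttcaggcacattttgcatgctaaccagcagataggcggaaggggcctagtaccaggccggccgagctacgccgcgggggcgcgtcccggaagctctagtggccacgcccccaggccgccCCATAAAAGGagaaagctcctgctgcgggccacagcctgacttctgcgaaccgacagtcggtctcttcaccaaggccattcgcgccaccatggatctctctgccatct
Dusp1: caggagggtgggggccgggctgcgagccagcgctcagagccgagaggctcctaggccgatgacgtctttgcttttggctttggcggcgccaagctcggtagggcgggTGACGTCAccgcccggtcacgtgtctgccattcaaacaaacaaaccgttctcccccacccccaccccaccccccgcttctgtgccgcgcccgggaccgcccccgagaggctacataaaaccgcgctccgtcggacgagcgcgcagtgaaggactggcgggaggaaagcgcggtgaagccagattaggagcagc
Each was searched on both strands and is a match of letters only. The CArG box was found in 3 of 31 members with a window (9.68%: Egr2, Dusp5 and Zfp36) and in 1.81% of all genes. The CRE was in 9.68% of members (Maff, Btg2 and Dusp1) and in 2.03% of genes. The AP-1 letters TGANTCA were in 3.23% of members and 8.97% of genes, the EGR letters GCGTGGGCG in 3.23% and 0.707%, and the TATA letters TATAAA in 12.9% and 15.7%.

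Of the AP-1 factors, Fosl2 and Maff were not called and had higher means in PA than in CD11c- ATM in both diets (6.28 against 5.86 and 6.51 against 5.87 for Fosl2). Fos was 8.60, 7.94 and 8.64 in ND PA and 8.26, 6.73 and 8.58 in HFD PA, against 9.62 and 9.90 and 9.33, 9.67 and 9.16 in CD11c- ATM. The lowest value was that of HFD PA 2, and groups did not overlap. The differences were -1.37 ± 0.42 (limma, adjusted p = 0.02) and -1.53 ± 0.37 (limma, adjusted p = 0.0047), and for Fosb -1.37 ± 0.44 (limma, adjusted p = 0.029) and -1.17 ± 0.40 (limma, adjusted p = 0.042). Junb differed by -0.85 ± 0.30 (limma, adjusted p = 0.046) and -1.13 ± 0.27 (limma, adjusted p = 0.004) in ND and HFD. Jund was called in ND (-1.47 ± 0.44, limma, adjusted p = 0.019) and did not pass the test in HFD (adjusted p = 1). Atf3, a stress induced repressor, was called in HFD, at 6.49, 4.47 and 7.91 in PA against 9.08, 8.61 and 8.90 (-2.57 ± 0.65, limma, adjusted p = 0.0067), and was 6.32, 5.34 and 6.73 against 7.51 and 7.75 in ND (-1.50, adjusted p = 0.16). Of the calls in ND, those lost were Fos without any 1 of CD11c- ATM arrays 1 and 2 and PA array 2 (adjusted p 0.063 to 0.14), Fosb without any 1 of CD11c- ATM arrays 1 and 2 and PA array 2 (adjusted p 0.075 to 0.2), Junb without any 1 of CD11c- ATM arrays 1 and 2 and PA arrays 2 and 3 (adjusted p 0.089 to 0.24) and Jund without any 1 of CD11c- ATM arrays 1 and 2 and PA arrays 2 and 3 (adjusted p 0.053 to 0.15). In HFD they were Fosb without any 1 of CD11c- ATM arrays 1, 2 and 3 and PA arrays 1 and 2 (adjusted p 0.053 to 0.23) and Atf3 without PA array 2 (adjusted p = 0.057).

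Btg2, an antiproliferative protein that promotes mRNA deadenylation, was 7.85, 7.75 and 8.12 in ND PA and 7.69, 6.68 and 7.73 in HFD PA against 9.38 and 9.74 and 9.52, 8.78 and 9.14. Its differences, -1.65 ± 0.32 (limma, adjusted p = 0.00053) and -1.78 ± 0.29 (limma, adjusted p = 0.00011), held with each array left out. Nfkbiz was 5.0, 4.02 and 5.29 in HFD PA against 7.62, 6.71 and 6.68 (-2.23 ± 0.37, limma, adjusted p = 0.00016), and in ND it differed by -1.28 ± 0.42 (limma, adjusted p = 0.03). Ier3 was lower in ND PA, at 7.05, 4.55 and 4.57 against 8.54 and 8.19 (-2.97 ± 0.78, limma, adjusted p = 0.0072), and its difference in HFD was -1.37 (adjusted p = 0.19). Of the KLF factors, Klf2, which restrains the activation of monocytes, was lower in ND PA (6.0, 5.52 and 5.67 against 7.62 and 7.42, -1.79 ± 0.41, limma, adjusted p = 0.0025), and Klf6 in HFD PA (7.61, 7.60 and 7.57 against 8.91, 8.36 and 8.55, -1.01 ± 0.23, limma, adjusted p = 0.003). The phosphatases Dusp2 and Dusp6 were lower in HFD PA, with differences of -1.25 ± 0.29 (limma, adjusted p = 0.0029) and -0.78 ± 0.20 (limma, adjusted p = 0.0062). Nfil3 was higher in PA of both diets, at 6.51, 6.41 and 6.79 in ND and 6.55, 6.53 and 6.78 in HFD, against 5.46 and 5.19 and 5.60, 5.77 and 5.60 (1.25 ± 0.28, limma, adjusted p = 0.0022, and 0.96 ± 0.25, limma, adjusted p = 0.0082), and both calls held with each array left out. Calls lost in ND were Nfkbiz without any 1 of CD11c- ATM arrays 1 and 2 and PA arrays 1 and 2 (adjusted p 0.07 to 0.14), Ier3 without CD11c- ATM array 1 (adjusted p = 0.067), Dusp1 without any 1 of CD11c- ATM arrays 1 and 2 and PA arrays 2 and 3 (adjusted p 0.069 to 0.2) and Zfp36 without any 1 of CD11c- ATM arrays 1 and 2 and PA arrays 2 and 3 (adjusted p 0.087 to 0.15). In HFD they were Dusp1 without PA array 2 (adjusted p = 0.065) and Dusp6 without PA array 1 (adjusted p = 0.054). The ND count of 12 fell to 4 without either ND CD11c- ATM array, to 5 without ND PA 2 and to 7 without ND PA 3. The HFD count of 13 lay between 10 and 14 with each array left out and was 14 without the 3 arrays that stood apart.

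**Figure D4:**
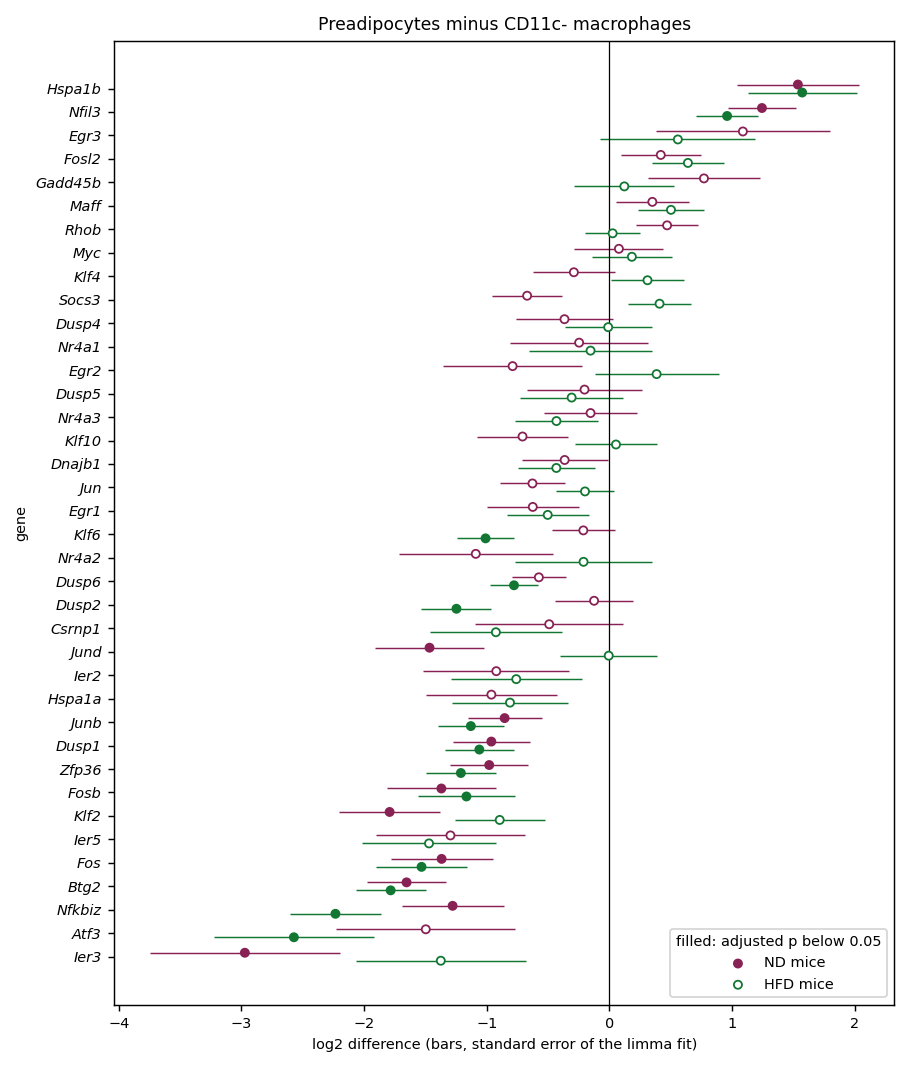
Log2 difference, PA minus CD11c- ATM (horizontal axis), of the 38 members (vertical axis) in ND (purple) and HFD mice (green), with the standard error of the limma fit as bars; filled points passed an adjusted p of 0.05. Filled points left of 0 number 10 in ND and 11 in HFD, and Hspa1b and Nfil3 are the 2 members filled on the right in both.

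The 3 heat shock genes differed among themselves, and Hspa1b alone of them passed the F test. Hspa1b, which encodes inducible Hsp70, was 9.93, 8.85 and 9.35 in ND PA and 9.03, 9.04 and 9.15 in HFD PA, against 8.42 and 7.25 and 7.28, 7.34 and 7.88 in CD11c- ATM. All PA arrays were above the macrophage arrays of their diet. The differences were 1.54 ± 0.50 (limma, adjusted p = 0.029) and 1.57 ± 0.45 (limma, adjusted p = 0.014), lost without any 1 of CD11c- ATM array 2 and PA arrays 1 and 3 (adjusted p 0.06 to 0.35) and without any 1 of CD11c- ATM arrays 1 and 2 (adjusted p 0.052 to 0.059). Its neighbour Hspa1a was highest in ND CD11c- ATM (8.99 and 8.58) and was called between WL (7.01 and 6.29) and ND CD11c- ATM, at -2.14 ± 0.58 (limma, adjusted p = 0.033), a call lost without any 1 of ND arrays 1 and 2 and WL arrays 1 and 2 (adjusted p 0.053 to 0.19). In PA Hspa1a was 7.74, 8.26 and 7.48 in ND and 7.42, 5.75 and 7.48 in HFD, and neither difference from CD11c- ATM passed (-0.96, adjusted p = 0.23, and -0.81, adjusted p = 0.28). The 2 genes encode nearly the same protein, and signal from one can reach the probes of the other, so their rows cannot be assigned with certainty. Their promoter windows, shown to make the likeness visible (GRCm38.p6, RefSeq), lie at chr17:34972107-34972406, minus strand for Hspa1a and chr17:34959189-34959488, minus strand for Hspa1b. They differ at 4 of 300 positions (98.67% identical). Capitals mark the heat shock element GAANNTTC, present in both.
Hspa1a: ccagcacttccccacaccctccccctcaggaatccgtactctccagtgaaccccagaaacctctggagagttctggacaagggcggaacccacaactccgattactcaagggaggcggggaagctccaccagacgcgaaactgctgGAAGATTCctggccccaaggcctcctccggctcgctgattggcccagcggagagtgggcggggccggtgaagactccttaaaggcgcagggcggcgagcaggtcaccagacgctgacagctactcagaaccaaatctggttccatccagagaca
Hspa1b: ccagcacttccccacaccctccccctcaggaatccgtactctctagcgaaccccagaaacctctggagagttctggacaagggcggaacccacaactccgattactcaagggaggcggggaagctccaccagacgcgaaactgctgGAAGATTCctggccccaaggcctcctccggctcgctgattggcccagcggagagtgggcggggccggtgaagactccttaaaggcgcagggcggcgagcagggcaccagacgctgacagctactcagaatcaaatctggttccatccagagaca
The match is in the same place in each. Dnajb1, the Hsp40 partner of Hsp70, was called in no comparison. It was 7.30 and 6.42 in WL CD11c- ATM and 5.93, 5.52 and 5.75 in WL CD11c+ ATM, a difference of -1.12 (adjusted p = 0.12).

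The remaining members were called in no comparison. Ier5, a regulator of heat shock factor, was 5.28, 2.97 and 5.33 in HFD PA and 6.37, 5.58 and 6.06 in HFD CD11c- ATM (-1.47, adjusted p = 0.063), and 5.52, 4.46 and 5.19 against 6.46 and 6.24 in ND (-1.30, adjusted p = 0.14). Dusp4, a nuclear phosphatase of ERK, was 4.32, 4.55 and 5.70 in WL CD11c+ ATM and 4.05 and 3.21 in WL CD11c- ATM (1.23, adjusted p = 0.13). No other member was higher by 1 log2 unit or more in the WL CD11c+ than in the WL CD11c- cells. Myc, a driver of growth, lay within 6.69 to 8.48 on all arrays and Klf10, a target of TGF-beta signalling, within 6.05 to 7.99.

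The members also varied together between pools of the same group. With group means removed, the mean pairwise correlation over the 24 arrays was 0.315 among the 38 members and 0.011 among all tested genes, with values of 0.577 for Zfp36, Socs3 and Nfkbiz, 0.474 for the KLF factors, 0.350 for the AP-1 factors and 0.207 for the phosphatases. The closest pairs were Egr1 with Zfp36 (0.918), Fos with Zfp36 (0.878) and Junb with Egr1 (0.878). Ier5 and Socs3 deviated together within groups (0.872), although their values over all arrays ran slightly opposite (-0.274). These correlations share arrays and the members' choice and are given as a description. Because the members varied together, the counts of members with the same sign in 2 comparisons do not count separate observations. Macrophage markers, whose levels follow the purity of a sort, had a mean of 0.587. Some arrays lay to one side of their group for most members. WL CD11c+ ATM 1 had a median deviation of -0.494 over the members, with 33 of 38 below the group mean (59.1% of all genes), and HFD PA 2 one of -0.481, with 30 below (58.4% of all genes). HFD PA 2 was the lowest of all 24 arrays for 15 members. ND PA 1 was high instead, with a median of 0.447 and 30 members above its group mean, as was HFD PA 3 with 0.348 and 34 above. Macrophage marker medians were 6.26, 5.67 and 8.08 in HFD PA 1 to 3 and 5.58, 4.70 and 4.17 in ND PA 1 to 3, so that the arrays high in members were also those highest in macrophage markers in their group. The part of these cells was not tested.

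**Figure D5:**
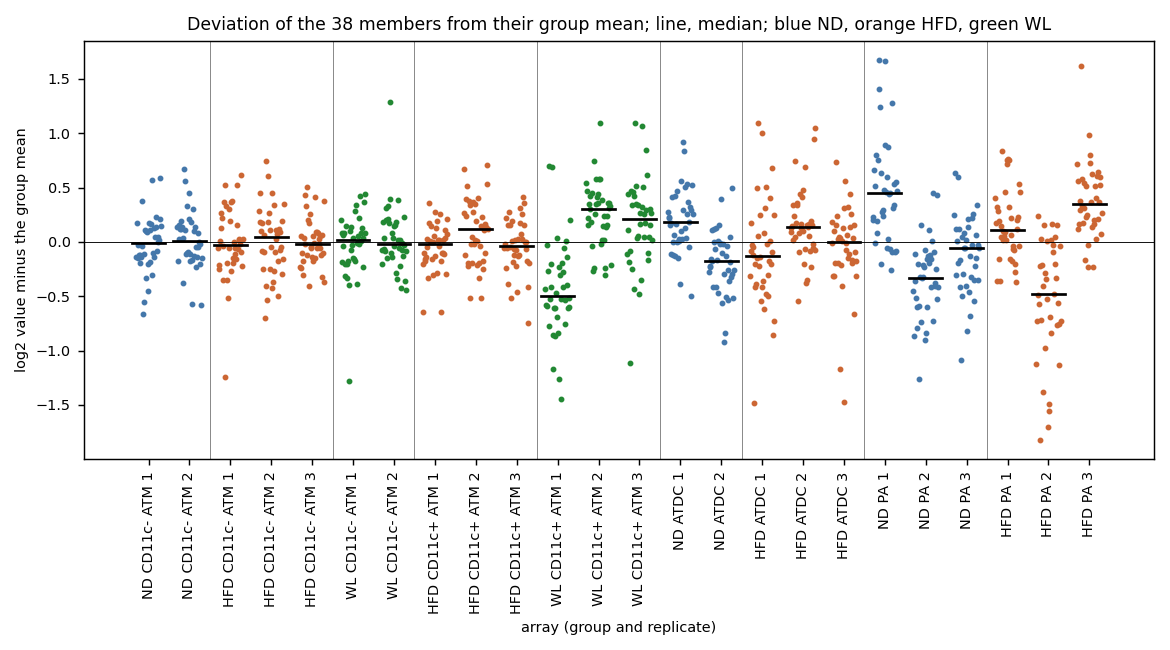
Deviation of each of the 38 members from its group mean, in log2 units (vertical axis), on each of the 24 arrays (horizontal axis); points are genes, black lines are medians, and ND is blue, HFD orange and WL green. The points of WL CD11c+ ATM 1, ND PA 2 and HFD PA 2 lie mostly below 0, and those of ND PA 1 and HFD PA 3 mostly above.

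Other genes of the pathway are given by counts. Of 27 further early response genes, 7 rose in WL against HFD CD11c- ATM and 0 fell, where 2.96% of all genes were called (Ccn1 3.61, Ptgs2 3.09, Bhlhe40 2.68 and Id3 2.61 log2 units), and 10 rose against ND (6.18%). Ptgs2 encodes the inducible cyclooxygenase, Ccn1 a matrix protein, and Bhlhe40 and Id3 are helix-loop-helix repressors. In WL CD11c+ ATM 4 of the 27 rose against HFD and 0 fell, against 1.33% of all genes (Ccn1 3.97, Ptgs2 2.63, Id3 2.62 and Sgk1 1.10). In ND ATDC 4 were higher than in CD11c- ATM (8.27% of all genes called), led by Id2 3.93 and Bhlhe40 3.82. In PA 8 were higher and 2 lower in ND, where 23.4% of all genes were called, and 12 higher and 2 lower in HFD, where 20.7% were. Of 22 further feedback genes, 2 rose in WL against HFD CD11c- ATM (Pim1 2.02 and Tnfaip3 1.52). In ND PA 5 were higher, led by the receptor kinase antagonists Spry2 4.92, Spry4 3.85, Errfi1 3.24 and Spry1 3.08, and 4 were lower. In HFD PA 5 were higher and 3 lower. The same shares of all genes, 23.4% and 20.7%, apply to these counts. Of 16 other chaperones, the small heat shock protein Hspb1 was called in WL against HFD in CD11c- ATM (1.90) and CD11c+ ATM (1.81) and in PA against CD11c- ATM (2.09 in ND and 2.34 in HFD), and no other chaperone in these 4 comparisons. Summed preadipocyte markers were higher in WL than in HFD CD11c+ ATM (4657 to 5992 against 1295 to 2951). Mast cell markers were higher in WL than in HFD CD11c- ATM. The part of these cells in the levels of the related genes was not tested. Of 18 kinases and factors that induce the members, 0 were called in the 3 diet comparisons and in either WL comparison with HFD (limma). Of 11 other AP-1 and bZIP factors, 0 were called there either. In PA, the kinase gene Mapk14 (p38) was lower than in CD11c- ATM, with differences of -1.86 in ND and -1.40 in HFD, and the AP-1 partner Batf by -4.14 and -3.08.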

How the data were processed

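RNA of 24 sorted samples was amplified, labelled with biotin and hybridised to 1 array each. The values are the authors' deposited log2 values, for which RMA, oligo and limma are named without versions, per the submitters' processing notes. Of 41345 probe rows, 23521 name 1 gene, 1814 several and 16010 none here. Symbols came from the platform annotation, and 23328 of the single-symbol rows matched RefSeq by gene ID with 0 changed symbols. Of several rows of a gene the one with the highest mean was used. Genes above the array median on 2 or more arrays were kept, 15496 in all.

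One limma fit (version 3.58.1, R 4.3.3) with a mean for each of 9 groups and 15 residual degrees of freedom gave every difference. All p-values are two-sided and adjusted by Benjamini-Hochberg over all tested genes, with a threshold of 0.05. The fit was tested on simulated data. The number of arrays, 2 or 3 in a group, limits the precision, and p-values measure only the spread between these pools. All members could be named. Those past the threshold, or different by at least 1 log2 unit, are given with statistics, and of each related list up to 4 genes with the largest differences past the threshold in a comparison. Members, related genes and marker lists were chosen with earlier results of these data known. Alternatives were a replicate block, array medians subtracted, no filter or one at the 75th percentile, the mean of a gene's rows, array weights, the compared groups alone and leaving out arrays.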

Additional observations from a re-analysis of the deposited data

Results flagged for a closer look

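The weight loss difference of Fosl2 differed between CD11c+ and CD11c- macrophages, with an interaction term of -2.67 log2 units (limma, adjusted p = 0.0095). The call was lost with only the groups compared (adjusted p = 0.084). In CD11c- ATM both WL arrays lay above the 3 HFD arrays. In CD11c+ ATM each of the 3 WL arrays lay below each of the 3 HFD arrays, but only just (highest WL 6.17, lowest HFD 6.19). The difference in CD11c+ ATM was not called. Mast cell markers, of which 2 of 8 were called lower in that interaction, moved with it, and their part was not tested.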

How the results depend on the processing

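The 65 called differences of members, the Fosl2 interaction included, kept their direction in all 808 alternative values. In 630 they stayed past the threshold and in 178 they did not. With each array left out in turn, 24 held throughout and 41 were lost at least once. Of 1050 alternative values of differences not called, 36 passed the threshold. The cause of these moves was not tested. A fit of only the groups compared has fewer samples to estimate the spread.

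Replicate numbers did not pair the samples (correlation of deviations of 29 same-number pairs -0.131 to 0.252, 2 above 0.1). With the replicate number as a block the count of members called was 0, not 1, for HFD minus ND in CD11c- ATM and 1, not 0, in PA, and the other counts stayed within 1.5 times. The first count was also 0 with array medians subtracted, no filter, only the groups compared, and without the 3 arrays that stood apart, an alternative chosen after seeing the data. The PA count was 1 with the filter at the 75th percentile and 2 with array weights. For WL minus HFD in CD11c+ ATM it was 2 with the stricter filter, the mean of a gene's rows, array weights, or those 3 arrays removed, and 0 with only the groups compared. For WL minus HFD in CD11c- ATM it was 5 with array weights and 1 with only the groups compared.

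With only the groups compared, the counts were 7 for WL minus ND in CD11c- ATM, 0 for WL CD11c+ minus CD11c- ATM, 5 for ND ATDC minus CD11c- ATM and 0 for the weight loss interaction. With array weights they were 1 for WL CD11c+ minus CD11c- ATM and 1 for the diet interaction of PA.

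With each array left out, the counts ranged from 0 to 0 for HFD minus ND in CD11c- ATM, 0 to 3 in PA, 0 to 2 for WL minus HFD in CD11c+ ATM, 4 to 8 in CD11c- ATM, 5 to 8 for WL minus ND, 2 to 3 for WL CD11c+ minus CD11c- ATM, 5 to 7 for ND ATDC minus CD11c- ATM, 1 to 4 for HFD ATDC minus CD11c+ ATM, 4 to 12 for ND PA minus CD11c- ATM and 10 to 14 for HFD PA minus CD11c- ATM. A group of 2 arrays is then 1, assumed to vary like the others.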

Other observations

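The HFD minus ND differences of CD11c- ATM and PA share no array, and 29 of 38 members had the same sign in both (76.3%), compared with 53.1% of all tested genes. The median difference of the members was -0.18 log2 units in CD11c- ATM and -0.17 in PA, and no member was called in both. For ATDC and PA the same count was 26 of 38 (68.4%, 51.9% of all genes), and for CD11c- ATM and ATDC 23 of 38 (60.5%, 53.5% of all genes).

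Jund, Dusp6 and Socs3 each had a second row on the array. Over the 24 arrays it correlated with the row used at 0.811 for Jund, 0.821 for Dusp6 and 0.736 for Socs3, given as a description.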
